A study of Mus musculus with 30 samples.

Results

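The 10 genes described here, known from radial glia, were followed through the mouse midbrain floor plate and through cultured brain spheres. The 10 genes were chosen by their symbols, and all 10 were found among the 14997 genes of the captured table and the 26005 genes of the sphere table. They are Fabp7, Slc1a3, Nes, Vim, Hopx, Ptprz1, Tnc, Ndrg2, Ddah1 and Ttyh1. Measured values of this study were known when the symbols were picked, and the sources used here do not say which values decided. Levels and changes of the 10 genes, across ages and between sphere types, are therefore descriptions, given with no p. The gene lists used below were also chosen with earlier results known. Their named members are mostly those with the smallest p, so the p-values printed for them are not independent tests.

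Radial glia are the elongated progenitors of the developing brain, with a cell body at the ventricle and a process that reaches the outer surface. They give rise to neurons first and later to glia and ependymal cells, and they share many genes with astrocytes. In the ventral midbrain, radial glia of the floor plate are the progenitors of dopamine neurons.

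The captured libraries came from midbrain floor plate, taken by laser capture microdissection from Lmx1aCreERT2; R26TRAPC mice at 4 ages. These were E11, E13 and E18, embryonic days, and P70, a postnatal day. All 20 share this genotype, in which the Lmx1a promoter, active in floor plate, drives an inducible recombinase that marks the cells. E11 had 4 libraries, E13 had 5, E18 had 5 and P70 had 6. Spheres grown in vitro from adult brain gave 10 further libraries, 5 named MB and 5 named FB, names that the labels do not spell out. The design text speaks of ependymal spheres from the midbrain aqueduct and neurospheres from the lateral ventricle. The labels do not say whether the libraries within a group are from different animals or cultures. The p-values thus reflect no more than the spread among the libraries at hand, which may be technical, and captures that share an animal make them too small.

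Levels in captured tissue are the deposited values, called units here, which behave like RPKM, reads scaled by gene length and library size. Whole reads recovered behind them came to 3590280 to 10712241 per library, lowest at P70, and sphere libraries held 6327198 to 9291311 counts. Of 11 midbrain floor plate markers, 11 were listed in E11 tissue, 10 in E13 tissue, 10 in E18 tissue and 9 in P70 tissue. Lmx1b was not listed at E13 and E18, and Shh and Corin were not listed at P70. The listed floor plate markers summed to a median of 805, 865, 639 and 188 units at E11, E13, E18 and P70. The captured tissue also changed in its other markers. The summed level of 12 ependymal genes had a median of 24.6 units at E11 and 68.2 units at E13, with 8558 units at E18 and 22628 units at P70. That of 19 astrocyte genes, none of them among the 10, was 185, 870, 11453 and 22111 units at the same ages, and that of 10 proliferation genes was 1834, 659, 70.5 and 22.3 units. Mt3 alone, an astrocyte marker of that list, averaged 5281 units at E18 and 14295 at P70. At P70 against E18, 8 of the 19 astrocyte markers were higher (16.9% of all genes) and 6 were lower (24%). Neuron markers had median sums of 578, 1786, 1522 and 359 units, fibroblast and meninges markers of 557, 67.7, 110 and 24.8 units, and erythroid markers of 12274, 6249, 6.45 and 23.8 units. The globin genes Hba-a1, Hba-a2, Hbb-bs and Hbb-bt were not listed at any age, so the erythroid sums leave them out. Hbb-y alone averaged 10369 units at E11, 7145 at E13 and 2.29 at E18, so these sums do not measure red cell content across ages. The part of these shifts in the results below was not tested. In such bulk samples fewer cells of a type and less RNA per cell cannot be told apart.

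The series title names Sox9 and the Nfi (nuclear factor I) family, so the promoters of the 10 genes were searched for a Sox site and for the Nfi core motif, the letters TTGGC, on both strands. RefSeq windows on build GRCm38.p6, from 250 bases before a start site to 50 bases from it on, were found for all 10 genes and came to 14. The core motif occurred in 6 of these 14 windows, belonging to 5 of the 10 genes (Fabp7, Vim, Hopx, Tnc and Ndrg2), and in 46.7% of all 32851 windows. The Sox letters ACAAAG or ACAATG were found in 0 of the 14 windows and in 28.6% of all windows. A match is a description of the letters and not a binding site. Windows of the gene with the highest level at E13, the gene with the largest change and the gene whose mean varied least across ages are shown, with the core motif in capitals. The Fabp7 window lies on the plus strand at chr10:57784673-57784972, with the core motif 55 bases before the start site. Ndrg2 has 3 windows, all on the minus strand, of which 1 held no core motif and 1 held it 190 bases before its start site. The Ndrg2 window shown lies at chr14:51913955-51914254, with the core motif 66 bases before the start. The Vim window lies on the plus strand at chr2:13574061-13574360, with core motifs 93 and 16 bases before the start.
Fabp7: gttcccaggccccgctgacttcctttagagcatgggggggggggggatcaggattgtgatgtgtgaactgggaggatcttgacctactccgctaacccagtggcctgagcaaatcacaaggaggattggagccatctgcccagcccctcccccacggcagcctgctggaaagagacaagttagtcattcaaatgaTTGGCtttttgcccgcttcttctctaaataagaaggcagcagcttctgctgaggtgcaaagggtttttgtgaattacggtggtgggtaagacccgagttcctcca
Ndrg2: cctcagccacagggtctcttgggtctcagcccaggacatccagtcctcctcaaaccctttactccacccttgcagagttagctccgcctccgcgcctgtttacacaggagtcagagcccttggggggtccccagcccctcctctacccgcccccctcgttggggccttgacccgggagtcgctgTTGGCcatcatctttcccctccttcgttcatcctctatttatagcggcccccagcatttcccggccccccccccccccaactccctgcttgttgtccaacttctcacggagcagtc
Vim: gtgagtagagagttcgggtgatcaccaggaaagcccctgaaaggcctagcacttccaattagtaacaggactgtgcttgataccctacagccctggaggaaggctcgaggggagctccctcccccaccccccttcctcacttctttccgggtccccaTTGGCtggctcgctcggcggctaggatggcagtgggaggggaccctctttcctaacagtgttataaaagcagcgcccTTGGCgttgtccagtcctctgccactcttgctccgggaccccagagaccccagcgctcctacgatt

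The 10 genes did not share 1 course. Nes was highest at E11, Fabp7 and Vim at E13, Hopx at P70, and Slc1a3, Ptprz1, Tnc, Ndrg2, Ddah1 and Ttyh1 at E18. At E13 against E11, 7 of the 10 passed the threshold of 0.05 on the adjusted p of limma as higher, where 9.44% of the 11567 genes tested did, and 1 passed as lower, where 11.5% did. At E18 against E13, 7 of 10 were higher (22.4% of 11797 genes) and 3 were lower (25%). At P70 against E18, 1 of 9 was higher (16.9% of 12353 genes) and 6 were lower (24%). With another scaling, by median-ratio size factors, the calls over all genes at P70 against E18 were 2612 higher and 2174 lower, in place of 2082 and 2960. The median log2 change of the members was 2.38, 1.44 and -1.67 in these 3 comparisons, beside -0.04, -0.04 and -0.14 for all genes. The comparisons share the E13 or the E18 libraries. Because the members were picked with results known, nothing is read from these counts.

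**Figure D1:**
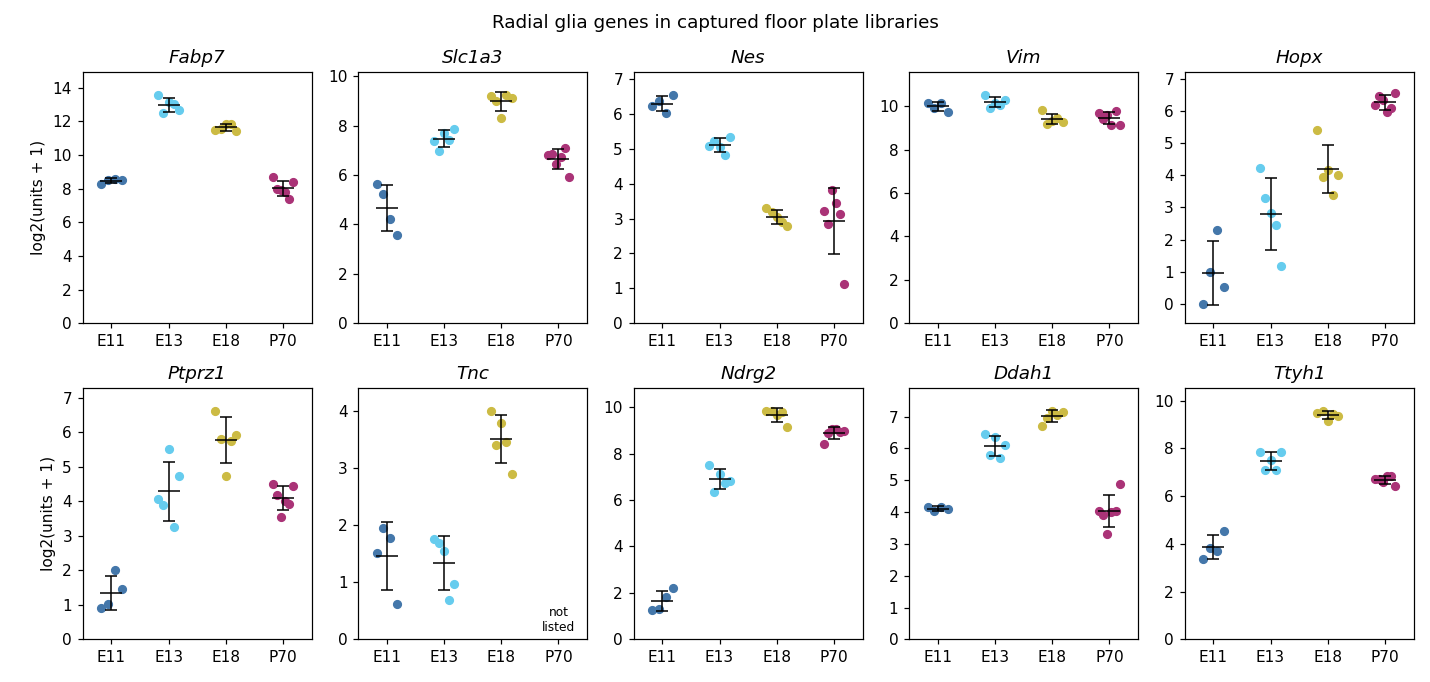
Level of each gene as log2(units + 1) in every captured library at E11, E13, E18 and P70. Points are libraries, and bars are the mean and SD of 4, 5, 5 and 6 libraries. Fabp7 peaks at E13, most genes at E18, Hopx at P70, and Tnc is not listed at P70.

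Fabp7 encodes the brain lipid-binding protein, a fatty acid carrier of radial glia, and lies on chromosome 10 from 57784881 to 57788450. It measured 308, 371, 381 and 361 units in the E11 libraries, 12315, 5906, 9170, 8375 and 6569 at E13, and 2860, 3032, 3735, 3617 and 2810 at E18. At P70 the lowest, median and highest values were 169, 245 and 408 units. The groups lay apart between E13 and E11, between E18 and E13 and between P70 and E18. Its mean ranked 308 of 12221 listed genes at E11, 4 of 12381 genes at E13, 8 of 13340 genes at E18 and 416 of 13291 genes at P70. The log2 change was 4.53 (SE 0.22) at E13 against E11, a ratio of means of 23.8. It was -1.36 (SE 0.21) at E18 against E13 and -3.61 (SE 0.20) at P70 against E18, where the mean was 11.8 times higher at E18.

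Fabp7 was the larger part of its family at each age. Against its relatives Fabp3 and Fabp5, fatty acid carriers as well, it made up 70.7% ± 1.83 of the summed level in the 4 E11 libraries (mean and SD), 96.5% ± 1.44 in the 5 E13 libraries, 93.5% ± 1.18 in the 5 E18 libraries and 74.7% ± 4.23 in the 6 P70 libraries. The mean share was highest at E13. The E13 and E18 shares overlapped, as did the E11 and P70 shares.

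Slc1a3 encodes GLAST, the glutamate transporter of radial glia and astrocytes, and lies on chromosome 15 from 8634124 to 8710764. It measured 49.0, 36.4, 17.8 and 10.9 units at E11, 123 to 230 units at E13, and 593, 514, 312, 609 and 561 units at E18. At P70 the lowest, median and highest values were 60.1, 109 and 135 units. All neighbouring ages lay apart, and the E11 libraries spread most, with a CV of 61.0%. The log2 change was 2.80 (SE 0.32) at E13 against E11, 1.51 (SE 0.30) at E18 against E13 and -2.33 (SE 0.29) at P70 against E18. Among Slc1a1, Slc1a2, Slc1a4, Slc1a5, Slc1a6 and itself, with an unlisted gene counted as 0, Slc1a3 held 37.6% ± 15.4 of the sum in the 4 E11 libraries (mean and SD), 83.2% ± 4.86 in the 5 E13 libraries, 83.4% ± 5.42 in the 5 E18 libraries and 68.3% ± 6.45 in the 6 P70 libraries. At E11 Slc1a5, a neutral amino acid transporter, measured 19.8 ± 3.83 units (SD, n = 4), within the range of Slc1a3.

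Nes and Vim encode intermediate filament proteins, nestin and vimentin, that build the cytoskeleton of neural progenitors. Nes lies on chromosome 3 from 87971078 to 87980451. It measured 74.3, 81.7, 64.2 and 93.0 units at E11, 32.8, 36.6, 32.3, 27.4 and 39.5 at E13, and 8.92, 8.05, 7.30, 6.49 and 5.96 at E18. At P70 it had a lowest, median and highest value of 1.19, 8.08 and 13.2 units. The E11, E13 and E18 libraries lay apart in falling order, while the P70 libraries overlapped those of E18. The log2 change of Nes was -1.19 (SE 0.34) at E13 against E11 and -2.06 (SE 0.32) at E18 against E13, and it was -0.11 (SE 0.31) at P70 against E18, which did not pass. The lowest P70 value rested on 24 reads in replicate 6, and without that library the last change was 0.25. With a pseudocount of 0.1 the E13 against E11 change of Nes was -1.21 (SE 0.43) and did not pass. Nes fell beside the proliferation markers at E13 and at E18. Of these markers, 10 of 10 tested were lower at E13 against E11 (11.5% of all genes) and 9 of 9 at E18 against E13 (25%). At P70 against E18, where Nes did not pass, 2 of 5 tested were lower (24%) and 4 more were listed only at E18. A link of Nes to these markers was not tested.

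Vim lies on chromosome 2 from 13573927 to 13582826 and stayed among the 121 highest means at each age. It measured 1116, 975, 1140 and 853 units at E11, 978 to 1475 units at E13, 583 to 893 units at E18 and 553, 722 and 865 units at P70 as lowest, median and highest. The E18 libraries lay below those of E13, and the P70 libraries overlapped those of E18. The log2 change of Vim was 0.20 (SE 0.17) at E13 against E11 and 0.03 (SE 0.15) at P70 against E18, neither of which passed, and -0.78 (SE 0.16) at E18 against E13, which did. Gfap, the filament gene of mature astrocytes, was not listed at E11 and E13. It measured 111 ± 52.4 units at P70 (SD, n = 6) and 1.65 ± 2.24 at E18 (n = 5), higher by 5.58 on the log2 scale (SE 0.41, limma adjusted p = 8.55e-08).

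Hopx encodes a homeodomain-only protein that does not bind DNA itself and that marks outer radial glia in human cortex. It lies on chromosome 5 from 77086988 to 77115121. It measured 0, 0.978, 3.97 and 0.449 units at E11, 17.6, 8.84, 6.16, 4.43 and 1.26 at E13, and 41.9, 14.5, 17.1, 9.43 and 15.0 at E18. At P70 it had a lowest, median and highest value of 61.5, 76.3 and 93.7 units. Only the P70 libraries lay apart from those of the age before, since E13 overlapped E11 and E18 overlapped E13. The log2 change of Hopx was 1.84 (SE 0.48) at E13 against E11, 1.39 (SE 0.46) at E18 against E13 and 2.09 (SE 0.44) at P70 against E18. With a pseudocount of 0.1 the first of these was 3.03. The middle change did not pass without E13 replicate 5 (0.99), without E18 replicate 1 (1.083) or with a pseudocount of 0.1 (1.59). Hopx was the sole member of the 10 that passed as higher at P70. In the same comparison 10 of 12 ependymal markers also rose, and 8 of 19 astrocyte markers rose while 6 fell. Of all genes, 16.9% rose and 24% fell there. The part of those cells in the Hopx level was not tested.

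Ptprz1 encodes a receptor tyrosine phosphatase at the glial surface, and Tnc encodes the matrix protein tenascin-C, 1 of its ligands. Ptprz1 lies on chromosome 6 from 22875502 to 23052916. It measured 0.882, 1.02, 3.002 and 1.75 units at E11, 15.9, 13.9, 44.6, 8.47 and 25.4 at E13, and 97.2, 54.8, 25.8, 53.2 and 59.4 at E18. At P70 it had a lowest, median and highest value of 10.6, 16.2 and 21.4 units. E13 lay above E11 and P70 below E18, while E18 and E13 overlapped. The log2 change was 2.94 (SE 0.38) at E13 against E11, 1.48 (SE 0.36) at E18 against E13 and -1.67 (SE 0.34) at P70 against E18. Tnc lies on chromosome 4 from 63959785 to 64047015 and stayed near the listing floor of 1 unit early. It measured 1.85, 2.86, 2.41 and 0.536 units at E11, 2.40, 2.22, 1.93, 0.622 and 0.949 at E13, and 15.1, 9.65, 12.9, 10.02 and 6.44 at E18. The E18 libraries lay above all earlier ones. The log2 change of Tnc was -0.13 (SE 0.33) at E13 against E11, which did not pass, and 2.18 (SE 0.31) at E18 against E13. Tnc was not listed at P70, so no change was computed there.

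The known partners of both proteins were taken as a list of 15, which included their ligands, contactins and lecticans. At E13 against E11, 3 of 11 tested were higher (9.44% of all genes) and 1 was lower (11.5%), with a median log2 change of 0.28. Ptn, a secreted ligand of Ptprz1, rose to 56.9 ± 17.3 units at E13, against 20.3 ± 9.67 at E11 (limma adjusted p = 0.00647), while Mdk, the related ligand, fell to 1009 ± 243 units, against 2199 ± 337 (limma adjusted p = 0.00287). At E18 against E13, 5 of 12 were higher (22.4% of all genes) and 2 lower (25%), with a median of 0.42. Cntn1, a neuronal contactin that binds Ptprz1, rose to 49.1 ± 9.47 units at E18, against 2.73 ± 0.99 at E13 (limma adjusted p = 2.46e-12). Bcan, the lectican brevican, rose by 4.23 (SE 0.35, limma adjusted p = 1.07e-08). At P70 against E18, 2 of 11 were higher (16.9% of all genes) and 6 lower (24%), with a median of -1.22. Sdc4, a heparan sulfate syndecan, rose to 219.8 ± 43.6 units at P70, against 54.5 ± 19.9 at E18 (limma adjusted p = 7.82e-07), while Sdc3 fell to 8.68 ± 2.40 units, against 39.7 ± 15.8 (limma adjusted p = 4.13e-06).

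Ndrg2 encodes a cytoplasmic protein that is abundant in astrocytes, and lies on chromosome 14 from 51905271 to 51914158. It measured 1.42, 1.48, 2.52 and 3.60 units at E11, which rested on 14 to 34 reads per library, and 179, 79.4, 136, 106 and 112 units at E13. At E18 it measured 903, 910, 818, 892 and 571 units, and at P70 its lowest, median and highest values were 336, 499.6 and 525.9 units. All neighbouring ages lay apart. The change at E13 against E11 was the largest of the 10, with a log2 change of 5.25 (SE 0.22) and a ratio of means of 54.4. It was 2.76 (SE 0.21) at E18 against E13 and -0.77 (SE 0.20) at P70 against E18. Among Ndrg1, Ndrg3, Ndrg4 and itself, Ndrg2 held 7.13% ± 2.67 of the sum at E11 (SD, n = 4), where Ndrg3 was higher at 23.2 units, and 70.2% ± 10.3 at E13 (SD, n = 5). It held 84.8% ± 4.90 at E18 (SD, n = 5) and 79.9% ± 6.02 at P70 (SD, n = 6).

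Ddah1 encodes an enzyme that breaks down asymmetric dimethylarginine, an inhibitor of nitric oxide synthesis, and lies on chromosome 3 from 145758675 to 145894277. It measured 16.9, 15.3, 17.01 and 16.02 units at E11, 51.3 to 85.9 units at E13, 105 to 144 units at E18, and 8.97, 15.3 and 28.2 units at P70 as lowest, median and highest. Neighbouring ages lay apart, and the E11 and P70 libraries overlapped in level. The log2 change of Ddah1 was 1.96 (SE 0.22) at E13 against E11, 0.94 (SE 0.21) at E18 against E13 and -2.98 (SE 0.20) at P70 against E18. Its relative Ddah2 carried most of the sum of both at E11, when Ddah1 held 4.06% ± 0.853 (SD, n = 4). Ddah1 held 14.03% ± 3.66 at E13 (SD, n = 5). It held 49.3% ± 9.59 at E18 (SD, n = 5) and 18.5% ± 10.1 at P70 (SD, n = 6).

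Ttyh1 encodes a membrane protein of the tweety family, and lies on chromosome 7 from 4119408 to 4136708. It measured 9.27, 13.1, 11.998 and 22.6 units at E11, 134 to 231 units at E13, 561 to 757 units at E18, and 83.7, 104 and 115 units at P70 as lowest, median and highest. All neighbouring ages lay apart. The log2 change of Ttyh1 was 3.62 (SE 0.21) at E13 against E11, 1.92 (SE 0.20) at E18 against E13 and -2.71 (SE 0.19) at P70 against E18. With Ttyh2 and Ttyh3, other members of the family, Ttyh1 held 43.6% ± 8.46 of the sum in the 4 E11 libraries (mean and SD), 78.3% ± 2.66 in the 5 E13 libraries, 90.2% ± 1.40 in the 5 E18 libraries and 62.8% ± 11.4 in the 6 P70 libraries.

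**Figure D2:**
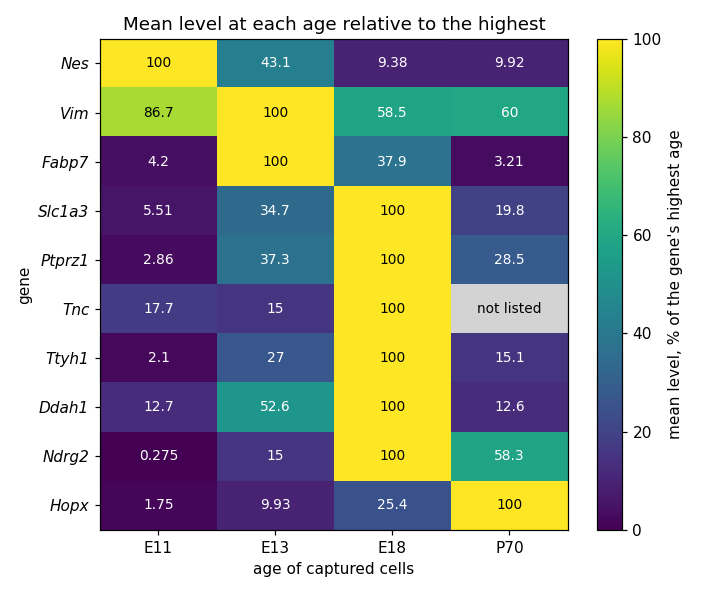
Mean level of each gene at E11, E13, E18 and P70 as a percent of the mean at its highest age, in captured libraries. 6 rows reach 100% at E18, while Nes does so at E11, Fabp7 and Vim at E13 and Hopx at P70.

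The relatives of the 10 genes, formed a list of 25. At E13 against E11, 6 of 15 tested were higher (9.44% of all genes) and 1 lower (11.5%), with a median log2 change of 0.81. At E18 against E13, 8 of 17 were higher (22.4% of all genes) and 3 lower (25%), with a median of 0.43. At P70 against E18, 4 of 20 were higher (16.9% of all genes) and 8 lower (24%), with a median of -0.53. Ttyh3 fell to 4.31 ± 0.855 units at P70, against 33.6 ± 13.3 at E18 (limma adjusted p = 2.32e-08).

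The order of the 10 levels changed with age. At E11 Vim was highest, at a mean of 1021 units, followed by Fabp7 at 355 and Nes at 78.3, with no overlap between these 3. At E13 Fabp7 (8467 units) lay above Vim (1177), and Ttyh1, Slc1a3 and Ndrg2 followed with overlapping ranges. At E18 Fabp7 (3211 units) again lay apart from the rest, and Ndrg2 (819), Vim (688), Ttyh1 (676) and Slc1a3 (518) overlapped with their neighbours. At P70 Vim (706 units) lay above Ndrg2 (477), whose range overlapped that of Fabp7 (272).

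The genes whose profiles lay nearest to a member over the 20 libraries were found among 9085 genes by the root mean square difference of centred log2 values. Slc1a3 lay nearest to Ednrb, the endothelin receptor B, at 0.54, and Ptprz1 to Ppap2b at 0.57. Fabp7 lay nearest to Aldh1l1, an enzyme of folate metabolism known from astrocytes, at 0.84. Nes lay nearest to Mcm7, a subunit of the replicative helicase, at 0.40, and Ndrg2 to Mmd2 at 0.64. Hopx lay nearest to Tmem59l at 0.74, Ddah1 to Pkia at 0.48, Ttyh1 to Ppp2r2b at 0.70 and Vim to Cdc42se1 at 0.23. A gene that varies little lies near other such genes, so distances of different members are not compared. The root mean square of the centred values was 0.40 for Vim itself and 2.94 for Ndrg2. These libraries share their age groups, so the distances describe the age course.

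Other genes known from neural stem cells and radial glia formed a list of 28. At E13 against E11, 6 of 24 tested were higher (9.44% of all genes) and 2 lower (11.5%), with a median log2 change of 0.19, and Vcam1, an adhesion molecule, rose by 2.98 (SE 0.40, limma adjusted p = 1.58e-05). At E18 against E13, 9 of 26 were higher (22.4% of all genes) and 7 lower (25%), with a median of 0.09. Dbi, an acyl-CoA binding protein, rose to 19167 ± 3480 units at E18, against 2221 ± 815 at E13 (limma adjusted p = 2.06e-11), while Id3, an inhibitor of differentiation, fell to 138 ± 28.2 units, against 2004 ± 445 (limma adjusted p = 3.15e-12). At P70 against E18, 4 of 26 were higher (16.9% of all genes) and 9 lower (24%), with a median of -0.23. Prom1, which encodes prominin, fell to 25.5 ± 9.95 units at P70, against 596 ± 198 at E18 (limma adjusted p = 4.10e-11).

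Genes that mark outer radial glia in human cortex formed a list of 11, which holds the growth and cytokine signalling genes Lifr, Il6st and Bmp7. At E13 against E11, 0 of 7 tested were higher (9.44% of all genes) and 2 lower (11.5%), Gpx3 and Bmp7, with a median of 0.04. At E18 against E13, 5 of 8 were higher (22.4% of all genes) and 1 lower (25%), with a median of 0.97, and Il6st, a cytokine co-receptor, rose to 15.5 ± 2.38 units at E18, against 3.81 ± 0.86 at E13 (limma adjusted p = 3.22e-06). At P70 against E18, 2 of 8 were higher (16.9% of all genes) and 3 lower (24%), with a median of 0.27. Gpx3, a secreted glutathione peroxidase, rose to 110 ± 56.0 units at P70, against 45.4 ± 19.4 at E18 (limma adjusted p = 0.00408).

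In cultured spheres all 10 genes were measured, and 8 were lower and 2 higher in MB than in FB. These counts stand beside 14.3% of 12886 genes that were lower and 15.3% that were higher, by the adjusted p of edgeR. The median log2 change was -0.62 for the members and -0.02 for all genes, and the results were known when the genes were listed. In each of the 10 genes the 5 MB libraries lay apart from the 5 FB libraries. Levels of single genes here are CPM, counts scaled by library size and TMM. Marker sums and RPKM of the spheres were scaled by library size without TMM.

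Tnc was the most lowered of the 8 in MB. It measured 273, 268, 275, 260 and 310 CPM in MB spheres, against 910, 878, 873, 811 and 847 CPM in FB spheres. The log2 change was -1.64 (SE 0.06), and the mean was 3.12 times higher in FB. Its receptor gene Ptprz1 measured 1587, 1670, 1625, 1739 and 1399 CPM in MB, against 2022, 1910, 2010, 1908 and 2035 in FB, with a log2 change of -0.30 (SE 0.05). Of the 15 partners, 5 were higher (15.3% of all genes) and 3 lower (14.3%) in MB, with a median of -0.06. Ncan, the lectican neurocan, fell to 429 ± 91.9 CPM in MB, against 1167 ± 180 in FB (edgeR adjusted p = 2.45e-08), while Vcan, the lectican versican, rose to 75.6 ± 8.66 CPM, against 22.8 ± 3.46 (edgeR adjusted p = 2.99e-09).

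The filament genes were lower in MB. Nes measured 72.4, 85.1, 93.8, 77.3 and 93.3 CPM in MB, against 161, 193, 185, 217 and 192 in FB, with a log2 change of -1.17 (SE 0.09). Vim averaged 734 ± 42.1 CPM in MB and 1309 ± 94.0 in FB (SD, n = 5 each), with a log2 change of -0.84 (SE 0.05). The proliferation markers summed to a median of 1763 CPM in MB and 2227 in FB. Of these markers, 7 of 10 were lower in MB (14.3% of all genes), and their part in the Nes and Vim values was not tested. Gfap fell in MB as well, to 52.6 ± 6.71 CPM, against 133 ± 13.3 in FB (edgeR adjusted p = 3.41e-09).

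Fabp7 measured 1801, 1989, 1701, 1822 and 1674 CPM in MB, against 3056, 3045, 3103, 3023 and 2950 in FB. Its log2 change was -0.76 (SE 0.04). Its relative Fabp5 rose to 488 ± 20.2 CPM in MB, against 343 ± 15.2 in FB (edgeR adjusted p = 3.58e-07). Ttyh1 averaged 72.5 ± 7.73 CPM in MB and 124 ± 3.27 in FB (log2 change -0.77, SE 0.08). Ddah1 averaged 446 ± 17.2 CPM in MB and 628 ± 29.2 in FB (log2 change -0.49, SE 0.05). Slc1a3 averaged 1461 ± 44.2 CPM in MB and 1617 ± 65.9 in FB, the smallest difference of the 10, with a log2 change of -0.15 (SE 0.04). Without a filter on low counts the Slc1a3 difference did not pass.

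Hopx and Ndrg2 went the other way. Hopx measured 12.8, 12.3, 9.03, 14.8 and 9.78 CPM in MB, against 3.61, 4.999, 2.73, 3.12 and 4.67 in FB, with a log2 change of 1.61 (SE 0.28). It was the lowest of the 10 in both kinds of sphere. Ndrg2 measured 317, 335, 289, 274 and 306 CPM in MB, against 236, 230, 251, 241 and 204 in FB, with a log2 change of 0.39 (SE 0.07). Of 18 astrocyte markers tested, 12 were higher (15.3% of all genes) and 3 lower (14.3%) in MB. Their sum ran from 10904 to 11432 CPM in MB and from 5361 to 5976 CPM in FB. The largest differences were in Apoe (3644 ± 125 CPM in MB, 1131 ± 65.3 in FB) and Sparcl1 (1682 ± 63.6 in MB, 188 ± 12.4 in FB). Aldh1l1, Gfap and Fgfr3 were the 3 lower in MB. The part of astrocyte markers in the Hopx and Ndrg2 values was not tested. The 12 ependymal markers summed to a median of 47.8 CPM in MB and 25.3 CPM in FB.

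**Figure D3:**
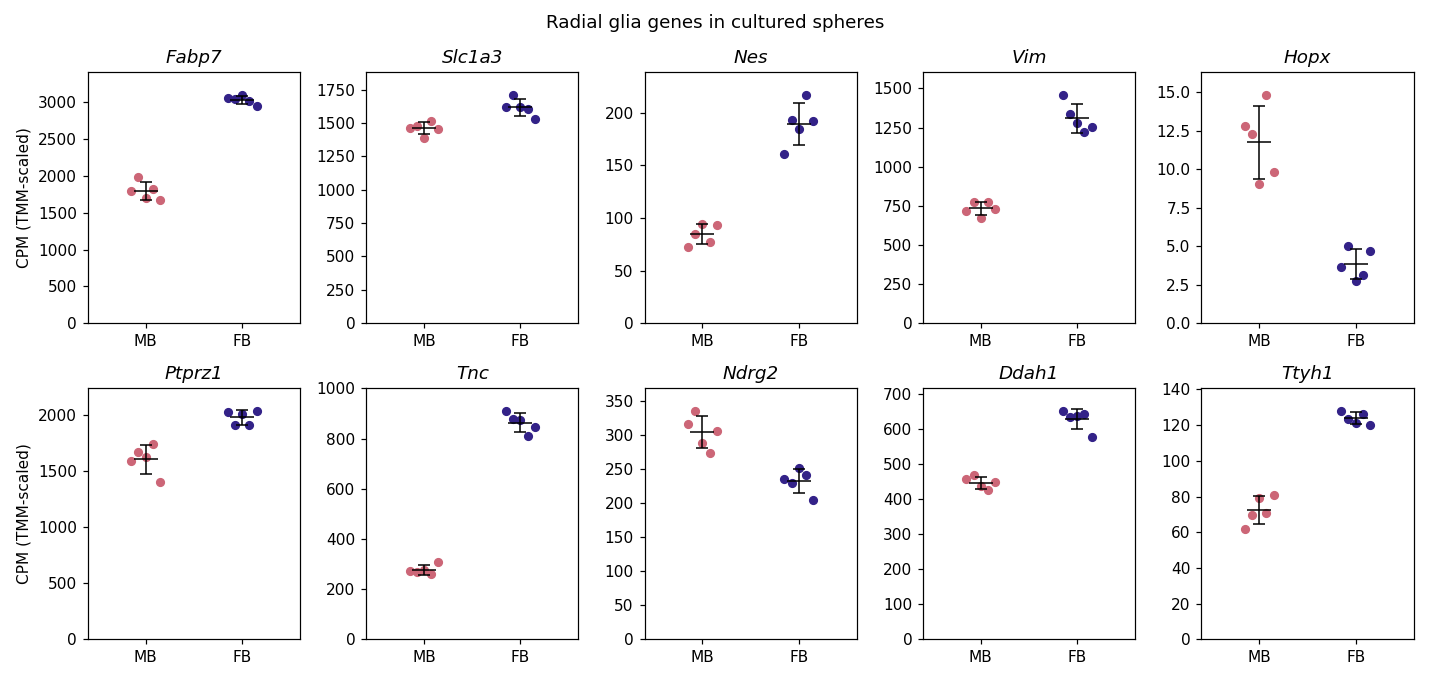
Level of each gene in CPM in the 5 MB and 5 FB sphere libraries. Points are libraries, bars are the mean and SD, and each axis starts at 0. Hopx and Ndrg2 are higher in MB, and the other genes lower, with no overlap between the groups.

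Per kilobase of exon, Fabp7 was the highest of the 10 in both kinds of sphere, at 1446 in MB and 2401 in FB as RPKM. In MB Slc1a3 (172) came next and lay apart from Vim (156), while Vim (273) lay above Slc1a3 (187) in FB. The MB order depends on the exon lengths used, 8537 bases for Slc1a3 and 4743 for Vim. The lengths behind the captured units differ, as 958 Slc1a3 reads gave 49.0 units and 9515 Vim reads 1116 units in E11 replicate 1. With those lengths Vim would lie above Slc1a3 in MB as well. Fabp7 held 90.6% ± 0.293 of its family in MB and 96.0% ± 0.089 in FB (SD, n = 5 each). Ttyh1 held 22.4% ± 2.79 in MB and 31.8% ± 1.74 in FB (SD, n = 5 each). Ddah1 held 63.8% ± 3.38 in MB and 69.2% ± 0.710 in FB. The Ndrg2 share was 72.5% ± 1.78 in MB and 78.2% ± 2.57 in FB, lower in MB although the level of Ndrg2 itself was higher there. Slc1a3 went the other way, with 80.7% ± 0.908 in MB and 73.1% ± 1.06 in FB.

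**Figure D4:**
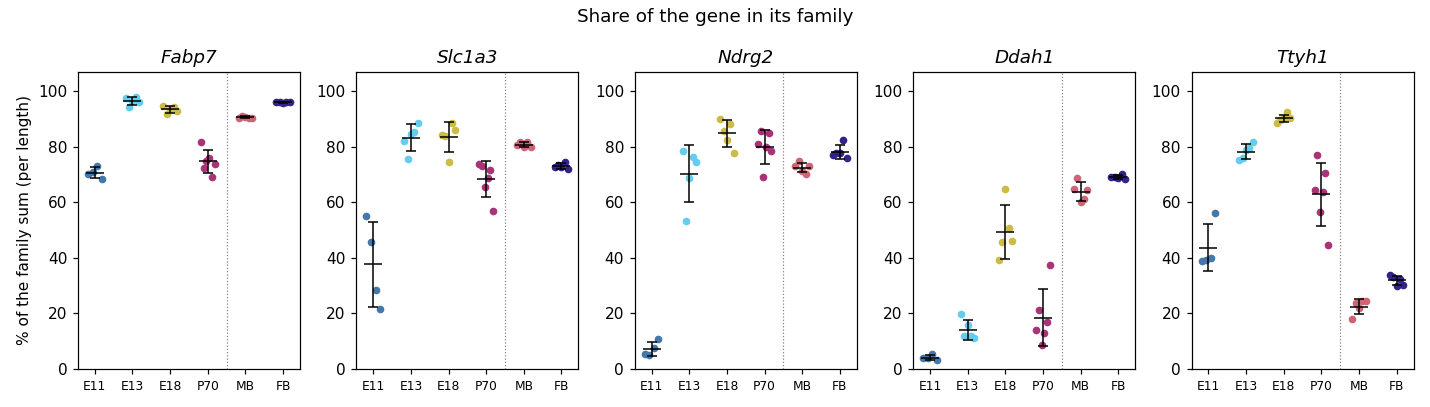
Share of Fabp7, Slc1a3, Ndrg2, Ddah1 and Ttyh1 in the summed level of their families, in percent, in captured libraries at 4 ages and, right of the dotted line, in MB and FB spheres. Points are libraries and bars are the mean and SD. The Ndrg2 share is lowest at E11, and the 2 tables were scaled separately, so captured and sphere shares are not compared.

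The companion genes known from neural stem cells and radial glia included 13 of 27 that were lower (14.3% of all genes) and 4 that were higher (15.3%) in MB, with a median of -0.42. Hes5, a Notch target, fell to 21.0 ± 1.74 CPM in MB, against 96.8 ± 5.16 in FB (edgeR adjusted p = 3.07e-12), and Cdh2, which encodes N-cadherin, fell to 96.4 ± 4.55 CPM, against 261 ± 19.6 (edgeR adjusted p = 7.09e-12). Mfge8 rose to 519 ± 20.3 CPM in MB, against 333 ± 17.4 in FB (edgeR adjusted p = 1.80e-08). Of the outer radial glia list, 4 of 10 were higher (15.3% of all genes) and 5 lower (14.3%), with a median of -0.05. Of the 20 family relatives tested, 7 were higher (15.3% of all genes) and 5 lower (14.3%) in MB, with a median of -0.08.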

How the data were processed

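Polyadenylated RNA was measured in 20 captured and 10 sphere libraries, deposited as separate tables and analysed apart. Per the labels' protocols, libraries were made by Smart-seq2 and Tn5 tagmentation, which mark neither strand nor molecule, so overlapping genes cannot be separated and counting error covers reads only. Per the submitters' processing notes the tools named are STAR 2.3, Salmon 1.6.0 and DESeq2 1.34.0 and the builds are GRCm39 and mm10, none with a stated role. The authors deposited normalized values for the captures, with a unit not given in the sources used here. They behave like RPKM, since whole reads could be recovered for 12147 of 14997 genes (81.0%, within 0.01 reads) and for 8 of the 10 genes described, not Hopx and Ttyh1. Genes below a mean of 1 unit at an age have no values there, and 142 lines with 11 repeated symbols were left out. The authors deposited whole-number counts for the spheres, which were used as given, and 0 columns were left out.

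The test for the captures was limma 3.58.1 (R 4.3.3) with a variance trend, on log2(value + 1), fitted to all 20 libraries together. Changes of low genes come out too small on this scale. For sphere counts it was the quasi-likelihood test of edgeR 4.0.16, with TMM scaling and low counts removed by its default filter. Benjamini-Hochberg adjustment covered all genes in each comparison, and both tests were checked on simulated data. Sphere levels per kilobase used exon lengths of the GRCm38 annotation, which may differ from the annotation counted, and gene coordinates are on that build. Promoter windows are from RefSeq. The alternatives were another pseudocount, filter, scaling, library weights and fit, DESeq2 1.42.0 for the spheres, each library left out, a replicate block, and, chosen after seeing the data, edgeR on the recovered reads.

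The 10 genes and all lists were chosen with earlier results of these data known. Named were all 10 genes, up to 3 members of each companion list per comparison that passed with the smallest p, family relatives with their levels, and the nearest profiles among genes listed at all 4 ages with a mean of at least 5 units at some age.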

Additional observations from a re-analysis of the deposited data

Results flagged for a closer look

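In 59 groups of libraries, 1 for each gene and age or sphere type, 5 held a library that stood apart from the others by Dixon's test, in which the gap to the nearest library is divided by the range of the group. Chance gives such a library in about 1 in 20 groups. Hopx at E18 was highest in replicate 1, at 41.9 units with the next library at 17.1 units, a gap of 0.763 of the range. Ndrg2 at E18 was lowest in replicate 5, at 571 units with the next at 818, a gap of 0.727. Ndrg2 at P70 was lowest in replicate 1, at 336 units with the next at 475, a gap of 0.734. Ddah1 at P70 was highest in replicate 6, at 28.2 units with the next at 15.6, a gap of 0.658. Ddah1 in FB spheres was lowest in replicate 5, at 577 CPM with the next at 634, a gap of 0.771. The cause of these gaps was not tested.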

How the results depend on the processing

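Over the alternatives run for single genes, 610 values kept their direction and their side of the threshold, 5 no longer passed and 10 changed sign. Each value that changed sign belonged to a difference that had not passed. For Tnc at E13 against E11 the values with 1 library left out ran from -0.41 to 0.034, for Nes at P70 against E18 from -0.29 to 0.25 and for Vim at P70 against E18 from -0.030 to 0.13. The Nes value was also 0.031 with median-ratio size factors, 0.014 with a quality weight per library and 0.13 with edgeR on recovered reads. The count of genes passing at E13 against E11 was 2421, but 3811 with only these ages in the fit and 4873 with library weights. At P70 against E18 it was 5042, but 2946 with edgeR on recovered reads, and the cause was not tested. That test gave 3073 genes at E13 against E11. In that test 0 of the 10 genes passed as higher at P70 against E18, since Hopx has no recovered reads. With a pseudocount of 0.1, 0 passed as lower at E13 against E11. Scaling by size factors moved the median of all genes at P70 against E18 by 0.18. Correlations between the deviations of same-numbered libraries ran from -0.15 to 0.25, so no common pairing was seen. Such values cannot show whether libraries share an animal or culture. With a replicate block 2655, 5824, 5004 and 3650 genes passed at E13 against E11, E18 against E13, P70 against E18 and MB against FB, and the Nes change at P70 was 0.25. Depth limits Ndrg2 at E11, Tnc at E11 and E13, Nes at P70 and Ptprz1 at E11, where the lowest libraries held 14, 17, 18, 24 and 33 reads. It also limits Hopx in FB spheres, with 24 to 38 counts per library. Reads of Hopx were not recovered in the captures, but it too was low at E11, with libraries of 0 to 3.97 units.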
